A study of Mus musculus with 7 samples.

Results

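The transcripts described here are those of neutrophil granule and calprotectin genes, measured in whole left lung of mice with a Gata5 deletion. The 10 genes are S100a8, S100a9, Ngp, Camp, Ltf, Retnlg, Csf3r, Mmp8, Mmp9 and Lcn2, chosen by name, and every probe set that the platform annotation assigns to 1 of them alone was taken. 9 of the 10 genes had such a probe set, out of 18193 genes on the array, and together they had 10 probe sets out of 45037 that are not controls. Retnlg, a resistin-like protein of mouse neutrophils, had none and is not analysed here. The groups were 3 mice labelled Gata5 KO (KO) and 4 labelled Wild Type (WT), all 8 weeks old, with 1 left lung and 1 array per mouse. The labels call the samples biological replicates. The sources used here do not give the strain, the deleted exons or any perfusion of the lungs before collection. Whole lung holds many cell types, so fewer neutrophils and less RNA per neutrophil cannot be told apart.

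Neutrophils are short-lived white cells that carry ready-made antimicrobial proteins in granules. They load these granules in sequence while maturing in bone marrow: primary granules with myeloperoxidase and elastase, then secondary granules with lactoferrin and cathelicidin, then tertiary granules with gelatinase. Transcripts of the secondary granules therefore belong mainly to immature cells, whereas S100a8 and S100a9 and several receptors stay transcribed in mature blood neutrophils. The lung capillaries hold a large pool of neutrophils that adhere loosely to the vessel wall, known as marginated cells, and blood left in the tissue adds more.

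S100a8 and S100a9 encode the subunits of calprotectin, the most abundant cytosolic protein complex of neutrophils, and lie next to each other on chromosome 3 with 0 annotated genes between them. Ngp and Camp, both encoding proteins of the cathelicidin family, and Ltf lie on chromosome 9, with 18 annotated genes between Ngp and Camp and 25 between Ngp and Ltf. The promoter windows of these 5 genes are shown as examples. S100a8 varied with S100a9 and Ngp with Camp between arrays, while no pair with Ltf passed the same test of correlation. Other pairs passed too, Mmp8 with S100a8 and S100a9 and Csf3r with Mmp9, but the windows of Mmp8 and Csf3r are not shown. Each window is 300 bases long and spans the annotated start, in RefSeq sequence of GRCm38.p6, written 5′ to 3′. Capitals mark the matches of 4 motifs, searched on both strands after the sequences had been read. The letters TTNCNNAA stand for C/EBP factors, which drive granule genes. The letters GAGGAA stand for PU.1, a factor of myeloid cells. TATAAA is the box bound by the general transcription machinery. AGATAA is the motif of the factor family that includes Gata5.
S100a8, chr3:90668821-90669120, + strand: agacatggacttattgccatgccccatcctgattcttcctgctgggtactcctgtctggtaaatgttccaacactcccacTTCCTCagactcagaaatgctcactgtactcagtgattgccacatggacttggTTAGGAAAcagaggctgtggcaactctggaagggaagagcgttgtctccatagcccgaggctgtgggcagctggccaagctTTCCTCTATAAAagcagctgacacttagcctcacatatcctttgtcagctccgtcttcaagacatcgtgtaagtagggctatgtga
S100a9, chr3:90695672-90695971, - strand: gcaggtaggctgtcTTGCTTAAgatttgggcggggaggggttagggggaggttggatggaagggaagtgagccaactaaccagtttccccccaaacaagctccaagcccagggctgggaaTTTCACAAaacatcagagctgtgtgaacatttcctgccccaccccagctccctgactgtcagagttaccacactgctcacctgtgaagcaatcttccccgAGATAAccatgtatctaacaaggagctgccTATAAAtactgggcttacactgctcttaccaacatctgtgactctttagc
Ngp, chr9:110419558-110419857, + strand: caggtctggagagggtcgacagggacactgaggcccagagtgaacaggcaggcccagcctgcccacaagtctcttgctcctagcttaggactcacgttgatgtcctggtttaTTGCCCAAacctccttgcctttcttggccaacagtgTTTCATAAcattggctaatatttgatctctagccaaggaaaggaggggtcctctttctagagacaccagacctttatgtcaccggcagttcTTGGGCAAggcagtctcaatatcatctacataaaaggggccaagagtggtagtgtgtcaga
Camp, chr9:109849407-109849706, - strand: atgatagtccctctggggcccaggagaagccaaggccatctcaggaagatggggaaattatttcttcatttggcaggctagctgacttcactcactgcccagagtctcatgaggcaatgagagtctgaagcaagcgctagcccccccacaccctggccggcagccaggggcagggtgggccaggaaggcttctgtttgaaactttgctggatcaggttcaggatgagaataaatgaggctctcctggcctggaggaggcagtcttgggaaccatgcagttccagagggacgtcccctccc
Ltf, chr9:111019042-111019341, + strand: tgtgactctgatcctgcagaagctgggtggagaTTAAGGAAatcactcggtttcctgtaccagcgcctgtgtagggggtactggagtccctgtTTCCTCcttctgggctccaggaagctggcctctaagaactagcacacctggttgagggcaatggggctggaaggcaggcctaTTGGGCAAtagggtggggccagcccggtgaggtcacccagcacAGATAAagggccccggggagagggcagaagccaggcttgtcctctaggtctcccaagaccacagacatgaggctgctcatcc

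The S100a8 window held a TATAAA starting 30 bases before the annotated start which directly follows a GAGGAA on the other strand. It also held 1 further GAGGAA match and 1 C/EBP match. The S100a9 window held an AGATAA starting 30 bases before its start, 2 C/EBP matches and a TATAAA at the start itself. Ngp held 3 C/EBP matches. Ltf held 2 of them, 1 GAGGAA match and an AGATAA starting 32 bases before the start. Camp held none of the 4 motifs as written here. Windows were found for 9 of the 10 genes, without Mmp9. Of these, 7 held the C/EBP letters, against 40.7% of all 32851 windows, 5 held GAGGAA (28.3%), 3 held TATAAA (13.6%) and 2 held AGATAA (11.2%). These are matches of letters, and binding was not measured.

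The arrays had median log2 levels between 6.10 and 6.15. With limma, 2069 of the 13285 genes passed, of which 738 were higher in KO and 1331 lower. The share of higher calls was 35.7% in the deposited values, 57.1% after a further quantile normalization, 24.6% after centring on medians and 46.8% after cyclic loess. The difference between the 3′ and 5′ beta-actin controls, a measure of RNA length, averaged 4.96 ± 0.37 log2 units in KO (SD, n = 3), against 4.10 ± 0.22 in WT (SD, n = 4). Adding it to the limma fit left 0 genes past the threshold, with 2204 at unadjusted p under 0.05. The difference was 4.74, 5.39 and 4.76 on KO arrays, all above the 4.31, 3.88, 4.27 and 3.94 on WT arrays. It can therefore not be told apart from genotype in this fit, and the part of either in the calls was not tested. Gata5 at its brightest probe set stood at 4.98, 4.71 and 5.15 on KO arrays, against 5.32, 5.53, 5.85 and 5.47 on WT arrays. Its mean over the arrays lay below the level required for testing, 5.47, so Gata5 was not among the 13285 genes tested. A fit of all probe sets included it, and its result there is not given here. WT replicate 4 stood apart in sex-linked transcripts, with Xist at 12.72, against 6.31 to 6.48 on the other 6 arrays. The Y-linked Eif2s3y was at 3.71 there, against 9.30 to 9.68 on the others. By these transcripts the WT group mixed the sexes, while all KO arrays read as male. Without WT replicate 4, 891 genes passed. The lung markers were bright: Scgb1a1, the club cell secretoglobin, averaged 14.54 in KO and 14.49 in WT.

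None of the 9 measured neutrophil genes passed the test between KO and WT, against 15.6% of all genes tested (limma, Benjamini-Hochberg adjusted p under 0.05, where the adjustment covers all 13285 genes). 1 of the 9, Ltf, had an unadjusted p under 0.05, against 34.8% of all genes. In 0 of the 9 genes were the groups free of overlap, against 29.6% of all genes. The log2 change, KO minus WT, was above 0 in 5 genes and below 0 in 4, with a median of 0.0058 over the 9 genes and -0.0033 over all genes tested. That balance rested on single arrays: 2 of the 9 were above 0 without KO replicate 1, 3 without KO replicate 2 or WT replicate 3, 7 without KO replicate 3 and 8 without WT replicate 1, and 2 with the 3′ and 5′ beta-actin difference in the fit. In a fit of all 45037 probe sets, 0 of the 10 probe sets passed, against 9.89% of all. All 9 genes lay above the level filter, at a log2 level of 5.47. Among the alternatives run, calls appeared for Ltf, Csf3r and Mmp9, as given with each gene.

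**Figure D1:**
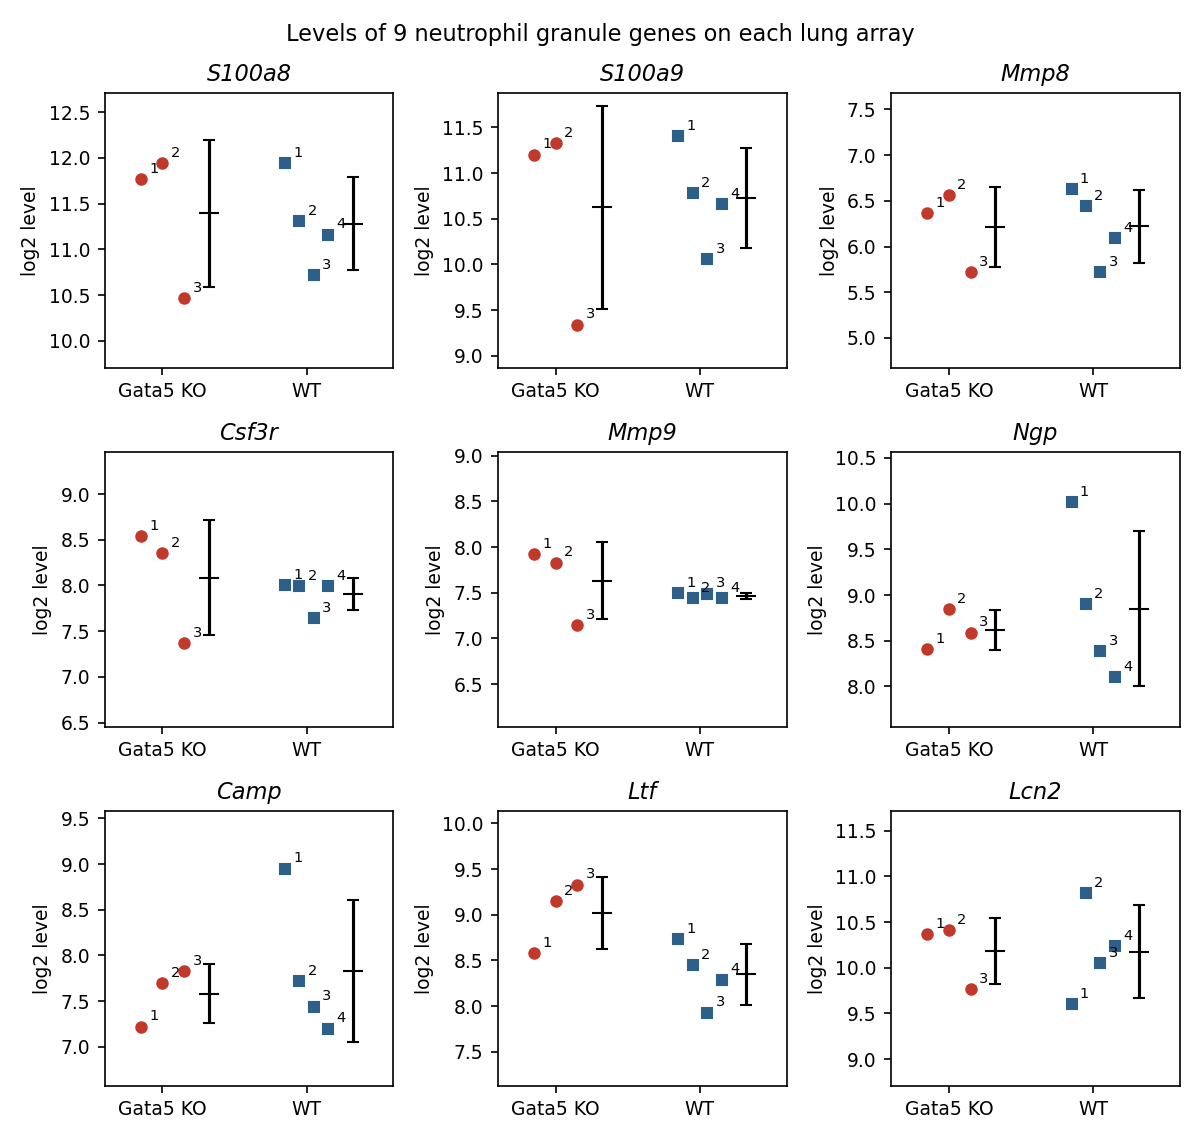
Log2 level of each gene on each array, with KO arrays as red circles and WT arrays as blue squares, numbered by replicate. Black bars give the mean and SD of each group, and each vertical axis spans 3 log2 units around the gene's own midpoint, so heights can be compared between panels but levels cannot. In every panel the range of the 3 KO arrays overlaps that of the 4 WT arrays, and KO replicate 3 is the lowest array, once level with WT replicate 3, in 5 of the 9 panels.

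The calprotectin genes were among the bright genes of the array and varied widely within each genotype. S100a8 had log2 levels of 11.77, 11.94 and 10.47 in KO lungs, against 11.94, 11.31, 10.72 and 11.16 in WT lungs. KO replicate 3 was the lowest of all 7 arrays, and KO replicate 2 and WT replicate 1 shared the highest value. The change was 0.11 on the log2 scale (95% interval -0.76 to 0.98, limma adjusted p = 0.853). The probe set for S100a8 is of a type that can also detect related transcripts. S100a9 had 11.20, 11.33 and 9.34 in KO lungs, against 11.40, 10.78, 10.06 and 10.66 in WT lungs. It had the widest span of the 9 genes, 2.06 log2 units or 4.17-fold between WT replicate 1 and KO replicate 3, and 1.99 of these lay within the KO group. Its change was -0.10 (95% interval -1.21 to 1.01, adjusted p = 0.895). The interval for S100a9 runs past 1 log2 unit on both sides, so smaller changes were not detectable with 3 and 4 arrays. Without KO replicate 3 the difference was 0.57 for S100a8 and 0.54 for S100a9, and neither passed.

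Among the secondary granule genes, Ngp and Camp were set apart by 1 WT lung. Ngp, neutrophilic granule protein, had log2 levels of 8.41, 8.85 and 8.59 in KO lungs, against 10.02, 8.90, 8.39 and 8.10 in WT lungs. Camp, the cathelicidin antimicrobial peptide gene, had 7.22, 7.70 and 7.83 in KO lungs, against 8.95, 7.72, 7.44 and 7.20 in WT lungs. For both genes WT replicate 1 was the highest array and WT replicate 4 the lowest, and the KO arrays lay between them. The changes were -0.24 for Ngp (95% interval -1.14 to 0.67, adjusted p = 0.691) and -0.24 for Camp (-1.10 to 0.62, adjusted p = 0.662). Without WT replicate 1 they were 0.15 and 0.13, with neither past the threshold.

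Ltf, which encodes the iron-binding protein lactoferrin of secondary granules and of glandular epithelium, had log2 levels of 8.58, 9.15 and 9.33 in KO lungs, against 8.73, 8.45, 7.93 and 8.29 in WT lungs. KO replicates 2 and 3 lay above every WT array, and KO replicate 1 lay below WT replicate 1. The KO lungs averaged 9.02 ± 0.39 (SD, n = 3), against 8.35 ± 0.33 for the WT lungs (SD, n = 4), a log2 change of 0.67 (95% interval 0.18 to 1.16, unadjusted p = 0.0136, limma adjusted p = 0.0681), which did not pass. It passed after a further quantile normalization, at 0.74 (limma adjusted p = 0.0478). It also passed when KO replicate 1 was left out, at 0.89 (limma adjusted p = 0.0335). Over the other alternatives the adjusted p lay between 0.0559 with cyclic loess and 0.607 with the 3′ and 5′ beta-actin difference in the fit (log2 change 0.49). On the same arrays the beta-actin 3′ minus middle difference was 2.84, 2.89 and 3.34 in KO and 2.56, 2.47, 2.41 and 2.23 in WT. The 3′ minus 5′ difference was 4.74, 5.39 and 4.76 in KO, and the Gapdh 3′ minus middle difference 3.85, 4.31 and 3.88. Both were highest in KO replicate 2, whereas the beta-actin 3′ minus middle difference, like Ltf, was highest in KO replicate 3. The part of these differences in the Ltf values was not tested. KO replicate 3 was thus the highest array for Ltf and the lowest for S100a8, S100a9, Csf3r and Mmp9.

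Lcn2 and Mmp8 complete the secondary granule set. Lcn2, the siderophore-binding lipocalin that airway epithelium also makes, had log2 levels of 10.37, 10.41 and 9.77 in KO lungs, against 9.60, 10.82, 10.05 and 10.24 in WT lungs. WT replicate 1, the highest array for Ngp and Camp, was the lowest for Lcn2, and the change was 0.0058 (95% interval -0.61 to 0.62, adjusted p = 0.990). Mmp8, neutrophil collagenase, was the dimmest of the 9, at 6.37, 6.56 and 5.72 in KO lungs and 6.63, 6.44, 5.72 and 6.09 in WT lungs. KO replicate 3 and WT replicate 3 shared its lowest value. Its change was -0.0033 (95% interval -0.57 to 0.57, adjusted p = 0.994).

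Mmp9 and Csf3r spanned more between the KO lungs, 0.77 and 1.17 log2 units, than between the WT lungs, 0.06 and 0.36. Mmp9, the gelatinase of tertiary granules that macrophages also make, had log2 levels of 7.92, 7.83 and 7.15 in KO lungs, against 7.50, 7.44, 7.49 and 7.44 in WT lungs. The WT arrays lay within 0.06 log2 units, while KO replicates 1 and 2 lay above all of them and KO replicate 3 below. The change was 0.17 (95% interval -0.21 to 0.54, adjusted p = 0.488). Its other probe set, below the level filter, was at 5.24, 5.09 and 4.92 in KO and 5.23, 5.16, 4.92 and 5.31 in WT, with a change of -0.07. Csf3r, the receptor for granulocyte colony-stimulating factor, had 8.54, 8.35 and 7.37 in KO lungs, against 8.00, 7.99, 7.64 and 7.99 in WT lungs. Again KO replicates 1 and 2 were above every WT array and KO replicate 3 was below, with a change of 0.18 (95% interval -0.39 to 0.76, adjusted p = 0.624). Without KO replicate 3 both genes passed, Mmp9 at 0.41 (adjusted p = 0.0223) and Csf3r at 0.54 (adjusted p = 0.0430). The remaining KO group then holds 2 arrays.

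**Figure D2:**
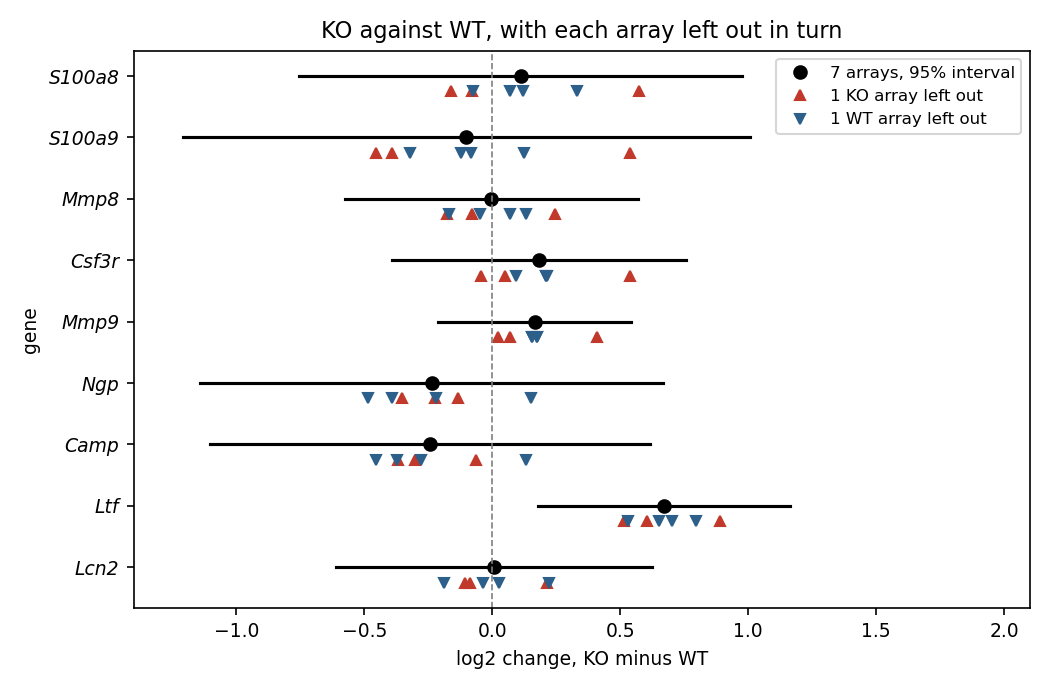
Log2 change, KO minus WT, of each gene (black circle) with its 95% interval from the limma fit on 7 arrays, and the same change with 1 KO array (red triangles) or 1 WT array (blue triangles) left out. The interval of Ltf, 0.18 to 1.16, lies above 0, and its adjusted p is 0.0681. For 7 of the 9 genes the change has both signs among the left-out fits.

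Variation between mice of the same genotype was the feature that the 9 genes shared. For each gene the SD within genotype was computed from the differences to its group means, and ranked among the 13285 tested genes. All 9 genes ranked above the 95th percentile, as did 664 of all 13285 genes, with percentiles from 95.03 for Mmp9 to 99.89 for S100a9 and a median of 99.08. The SD was 0.82 log2 units for S100a9, 0.67 for Ngp, 0.64 for S100a8 and 0.64 for Camp, whereas the median over all tested genes was 0.11. Without KO replicate 3, 7 of the 9 remained above that percentile, since the SD of Mmp9 fell to 0.042 and that of Csf3r to 0.17, while S100a9 stood at 0.48. Without WT replicate 1 the SD of Ngp was 0.33, at percentile 96.76.

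**Figure D3:**
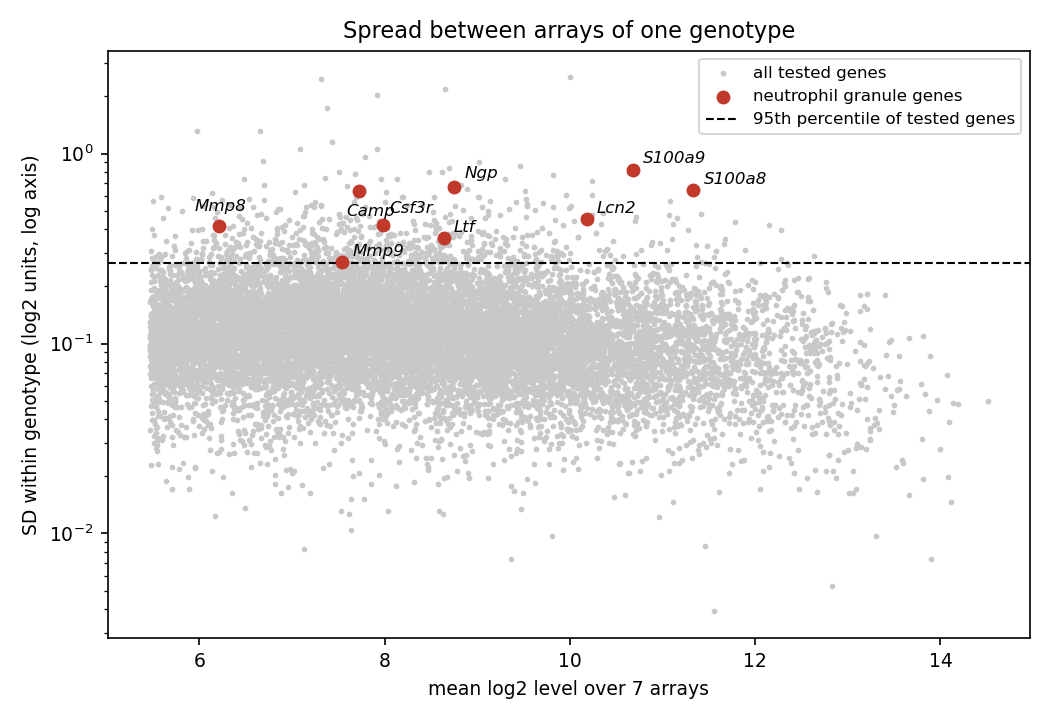
SD within genotype (vertical, log axis, log2 units) against the mean log2 level over 7 arrays (horizontal) for 13285 tested genes in grey and the 9 neutrophil genes in red. The dashed line is the 95th percentile, 0.267. All 9 genes lie on or above it, with Mmp9 at the line and S100a9 the highest.

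Some pairs of the genes varied together and others did not. Over the 36 pairs of the 9 genes, Pearson's r across the 7 arrays passed an exact permutation test, adjusted over the 36 pairs, in 5. S100a8 and S100a9 had r = 0.976 (exact permutation p = 0.000397, adjusted p = 0.0143) and Spearman's rho = 0.991 (p = 0.000794, adjusted p = 0.0286). Leaving out KO replicate 3, the array farthest from the S100a8 median, and KO replicate 2 gave r = 0.995. WT replicate 1 had the same S100a8 level as KO replicate 2, so it was equally far, and it was kept. Mmp8 followed both, with r = 0.948 with S100a8 and r = 0.929 with S100a9 (exact permutation, adjusted p = 0.0286 for each, rho = 0.945 and 0.955 with adjusted p = 0.0524 for each), and r was 0.913 and 0.818 without the 2 farthest arrays.

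Ngp and Camp had r = 0.965 (exact permutation p = 0.00377, adjusted p = 0.0339), but rho = 0.857 did not pass (adjusted p = 0.122), and r was 0.704 without WT replicates 1 and 4. WT replicate 1, the highest array for both, was thus 1 of the 2 arrays on which the higher value rested. Csf3r and Mmp9 had r = 0.928 (exact permutation, adjusted p = 0.0486) and rho = 0.891 (adjusted p = 0.0821), with r = 0.736 without KO replicates 1 and 3. Csf3r also followed the calprotectin genes, with r = 0.869 with S100a8 and r = 0.881 with S100a9, above 0.8 but not past the threshold (exact permutation, adjusted p = 0.0776 and 0.0595). Mmp9 had r = 0.768 with S100a8 and r = 0.770 with S100a9 (exact permutation, adjusted p = 0.179 for each). S100a9 had r = 0.450 with Ngp and r = 0.242 with Camp, and r = -0.060 with Ltf (exact permutation, adjusted p = 0.701, 0.817 and 0.959). After centring on genotype means, Ltf had r = 0.668 with Ngp and r = 0.762 with Camp, as a description. S100a8 and Ltf had r = 0.142 over 7 arrays (exact permutation, adjusted p = 0.865) but r = 0.977 without KO replicates 2 and 3. There too WT replicate 1, as far from the S100a8 median as KO replicate 2, was kept. KO replicate 3 was high for Ltf and low for S100a8. Lcn2 had r between -0.578 and 0.491 with the other 8 genes, and no such pair passed.

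**Figure D4:**
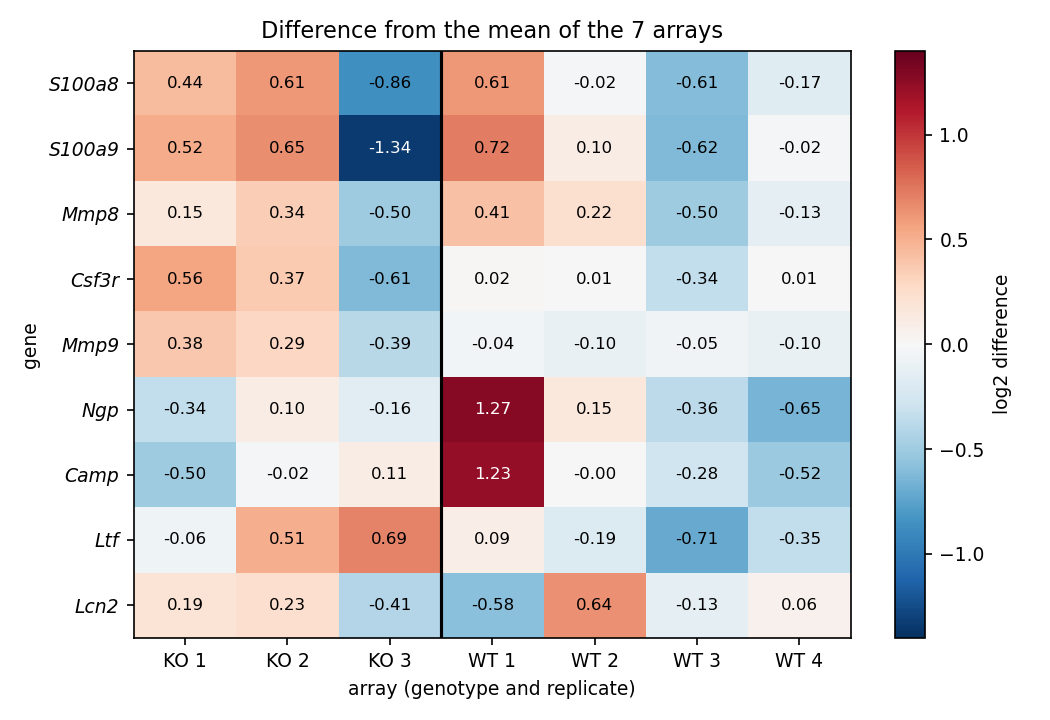
Difference of each gene from its own mean over the 7 arrays, in log2 units, by array, with KO arrays left of the line and WT arrays right. S100a8, S100a9, Mmp8 and Csf3r are low in KO replicate 3 and WT replicate 3, Ngp and Camp are high in WT replicate 1 alone (1.27 and 1.23), and Ltf is highest in KO replicate 3 (0.69).

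Genes with a profile like that of S100a8 and S100a9 were ranked by Pearson's r of genotype-centred levels over the 7 arrays, as a description, among 13276 other tested genes. The 10 most alike were AI467606, Poc1b, Stfa2l1, Tarbp2, Ifitm6, Nol3, Pofut1, Gle1, Pik3cg and Prune1, with r from 0.992 to 0.970. This r compares the shape of a profile and not its size. AI467606, Tarbp2, Nol3, Pofut1, Gle1 and Prune1 had SDs within genotype of 0.038 to 0.085, under the median of 0.11 over all tested genes. Among the 10, Stfa2l1, a stefin A gene of the neutrophil list, ranked 3 (r = 0.984). It stood at 7.08, 7.16 and 5.87 in KO and 6.68, 6.17, 5.97 and 6.14 in WT. Its SD within genotype was 0.52 log2 units, smaller than those of S100a8 and S100a9. Over all 13276 genes, 3.94% had r above 0.8. Of the 14 tested neutrophil surface receptors, 6 had r above 0.8, and the list ran from -0.082 for Siglece to 0.956 for Il1r2, the decoy interleukin-1 receptor, which ranked 24. The genes named next were picked after their values were seen. The C-type lectins Clec4e and Clec4d had r = 0.904 and 0.903, while the chemokine receptor Cxcr2 had r = 0.204 and Trem1, an activating receptor, r = 0.332. Of 14 other granule and cytosol genes 2 had r above 0.8, and of the 3 primary granule genes 0 had, with r from -0.719 to -0.193. Genes of other cells were alike too: 3 of 9 monocyte genes and 3 of 8 T and NK cell genes had r above 0.8, among them Ccr2, a chemokine receptor of monocytes, at 0.908 and Klrd1, a receptor of NK cells, at 0.906. Of 6 B cell genes 0 had.

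The wider neutrophil programme was read from lists. Primary granule genes were dim, with 3 of 5 on the array tested, and 0 changed. Mpo, myeloperoxidase, averaged 5.88 ± 0.20 in KO (SD, n = 3) and 5.67 ± 0.17 in WT (SD, n = 4), and Prtn3, proteinase 3, 6.14 and 6.02. Of 14 other granule and cytosol genes, 0 rose, 1 fell and 13 did not pass, with a median log2 change of 0.01. The 1 was Lyz2, lysozyme of macrophages and neutrophils, at 12.96 in KO and 13.39 in WT (log2 change -0.43, limma adjusted p = 0.0287), and it no longer passed when KO replicate 1 or 3 or WT replicate 2, 3 or 4 was left out (adjusted p at its highest 0.0888). Pglyrp1, a peptidoglycan-binding protein of neutrophil granules named here after its values were seen, had the widest spread of that list, at 8.03, 9.24 and 8.97 in KO and 8.99, 9.02, 7.18 and 8.90 in WT. WT replicate 3 was its lowest array, as it was for Ltf.

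Of 14 neutrophil surface receptors, 0 rose, 1 fell and 13 did not pass, and 8 of the 14 (57.1%) ranked above the 95th percentile of spread. The 1 was Cxcr4, a chemokine receptor that holds neutrophils in bone marrow and is also made by lymphocytes, at 8.22, 7.72 and 7.76 in KO and 8.86, 8.23, 8.62 and 8.92 in WT (log2 change -0.76, limma adjusted p = 0.0293). Leaving out KO replicate 2 or 3 or WT replicate 1, 3 or 4 ended its call (adjusted p at its highest 0.0936). Of 5 oxidase genes 0 changed: Cybb averaged 9.19 in KO and 9.22 in WT, and Cyba 8.70 and 9.13 (adjusted p = 0.0525). Among 5 granulocyte transcription factors, 0 rose, 1 fell and 4 did not pass. The 1 was Cebpa (log2 change -0.59, limma adjusted p = 0.0318), which lung epithelium also makes, and which no longer passed without KO replicate 1 or WT replicate 1, 2 or 4 (adjusted p at its highest 0.0750).

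Among 8 tested chemoattractant and growth factor genes, 1 rose, 0 fell and 7 did not pass. The 1 was Ppbp, the precursor of a neutrophil-attracting chemokine that platelets carry, at 10.78, 11.05 and 11.21 in KO and 10.22, 10.47, 10.15 and 9.97 in WT (log2 change 0.81, limma adjusted p = 0.00935). The other 5 of 13 on the array lay below the level filter. Of 11 receptors and inhibitors of the granule products, 0 rose, 3 fell and 8 did not pass, with a median log2 change of -0.35. Lrp1, an endocytic receptor for lactoferrin, fell by 0.52 on the log2 scale (adjusted p = 0.00902), while its other probe set was at 0.08. Timp2, an inhibitor of metalloproteinases, fell by 0.36 (limma adjusted p = 0.0123), and each of its 5 other probe sets also had a negative change. Tlr4, a receptor reported for calprotectin, fell by 0.47 (limma adjusted p = 0.0234), with its 3 other probe sets at -0.06, 0.08 and -0.20, and its call was lost without KO replicate 3 or WT replicate 3 or 4 (up to 0.0688). Ager, the receptor for advanced glycation end products that also binds S100 proteins, is a bright type 1 cell gene in lung and averaged 14.12 in KO and 14.14 in WT (adjusted p = 0.847).

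Relatives of the granule genes were read the same way. Of 10 other S100 genes, 0 changed and 0 ranked above the 95th percentile of spread, with S100a10 at 12.13 in KO and 12.09 in WT and S100a6 at 11.55 and 11.72. Of 9 other matrix metalloproteinases, 1 rose (Mmp24, log2 change 0.33, limma adjusted p = 0.0456), 0 fell and 8 did not pass, and the call of Mmp24 was lost without any 1 array except WT replicate 2 (adjusted p up to 0.129). Its other probe sets were at 0.07 and -0.01. Of 5 other resistin-like and lipocalin genes, 0 changed and 2 ranked above that percentile, with the resistin-like Retnla at 11.06 in KO and 11.17 in WT.

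Genes of other blood cells on the same arrays are given beside these, since blood left in the tissue would carry them too. Of 6 tested B cell genes, 0 changed and 6 ranked above the 95th percentile of spread, with list means of 7.54 to 8.70 on KO arrays and 7.06 to 8.18 on WT arrays. Ms4a1, the B cell surface protein CD20, was at 9.51, 9.01 and 7.51 in KO and 8.50, 7.53, 8.35 and 8.93 in WT. Gzma, the granzyme A of natural killer cells, was at 9.55, 9.16 and 7.86 in KO and 9.12, 8.49, 8.26 and 9.35 in WT, and 4 of the 8 T and NK cell genes ranked above that percentile, with 0 changed. KO replicate 3 was the lowest array for Ms4a1 and Gzma, as for S100a8 and S100a9, but for 1 of the 6 B cell genes only. The other 5 were lowest in WT replicate 2, among them Cd22, a B cell lectin, at 9.83, 9.69 and 9.21 in KO and 9.19, 8.69, 8.78 and 9.19 in WT. Of the 8 T and NK cell genes, 4 were lowest in KO replicate 3 and 3 in WT replicate 3. KO replicate 3 was also the lowest array for 6 of 10 alveolar macrophage genes and 5 of 12 lung endothelial and epithelial genes. The same held for 7 of 11 receptors and inhibitors of the granule products, but for 0 of 8 platelet genes. A low KO replicate 3 was thus not particular to neutrophil or lymphoid genes, and its share over all tested genes was not counted.

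Of 5 tested erythroid genes, 0 changed and 4 ranked above the percentile of spread used for the B cell genes. The erythroid genes followed another order. Alas2, an enzyme of haem synthesis in red cell precursors, was at 9.86, 9.96 and 9.47 in KO and 9.82, 10.81, 9.78 and 9.82 in WT, highest in WT replicate 2. The list means were 8.86 to 9.24 on KO arrays and 8.90 to 9.71 on WT arrays, and the alpha globin genes, outside the rule for named genes, lay below the level filter at probe sets naming 1 gene. Of 8 platelet genes, 4 rose (Ppbp, Gp1bb, Treml1 and Clec1b) and 4 did not pass, with list means of 8.18 to 8.42 on KO arrays and 7.62 to 8.02 on WT arrays. Clec1b no longer passed without KO replicate 2 or 3 or WT replicate 1, 3 or 4 (adjusted p at its highest 0.0936), nor Treml1 without KO replicate 3 (0.0526). Of 9 monocyte genes, 2 rose, Csf1r, the receptor for macrophage colony-stimulating factor (log2 change 0.33, limma adjusted p = 0.00944), and F13a1, and 7 did not pass. The call of F13a1 was lost without any 1 array except WT replicate 2 (adjusted p up to 0.120), and the other probe sets of Csf1r were at 0.26 and 0.05. Of 10 alveolar macrophage genes 0 changed. Of these 10, 4 ranked above the same percentile of spread, as did 2 of the 8 platelet and 2 of the 9 monocyte genes. Among the 12 lung endothelial and epithelial genes, 1 did. Of 1 eosinophil and 3 mast cell genes tested, 0 changed and 0 ranked above that percentile. Of 12 lung endothelial and epithelial genes, 0 rose, 1 fell (Pecam1, an endothelial junction protein, log2 change -1.22, limma adjusted p = 0.00679) and 11 did not pass. Among genes not tested, and picked after their values were seen, the eosinophil granule genes Prg2 and Epx had mean log2 levels of 3.93 and 3.99, below the filter. The part of blood, marginated cells or lymphoid tissue in the spread of the neutrophil genes was not tested.

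**Figure D5:**
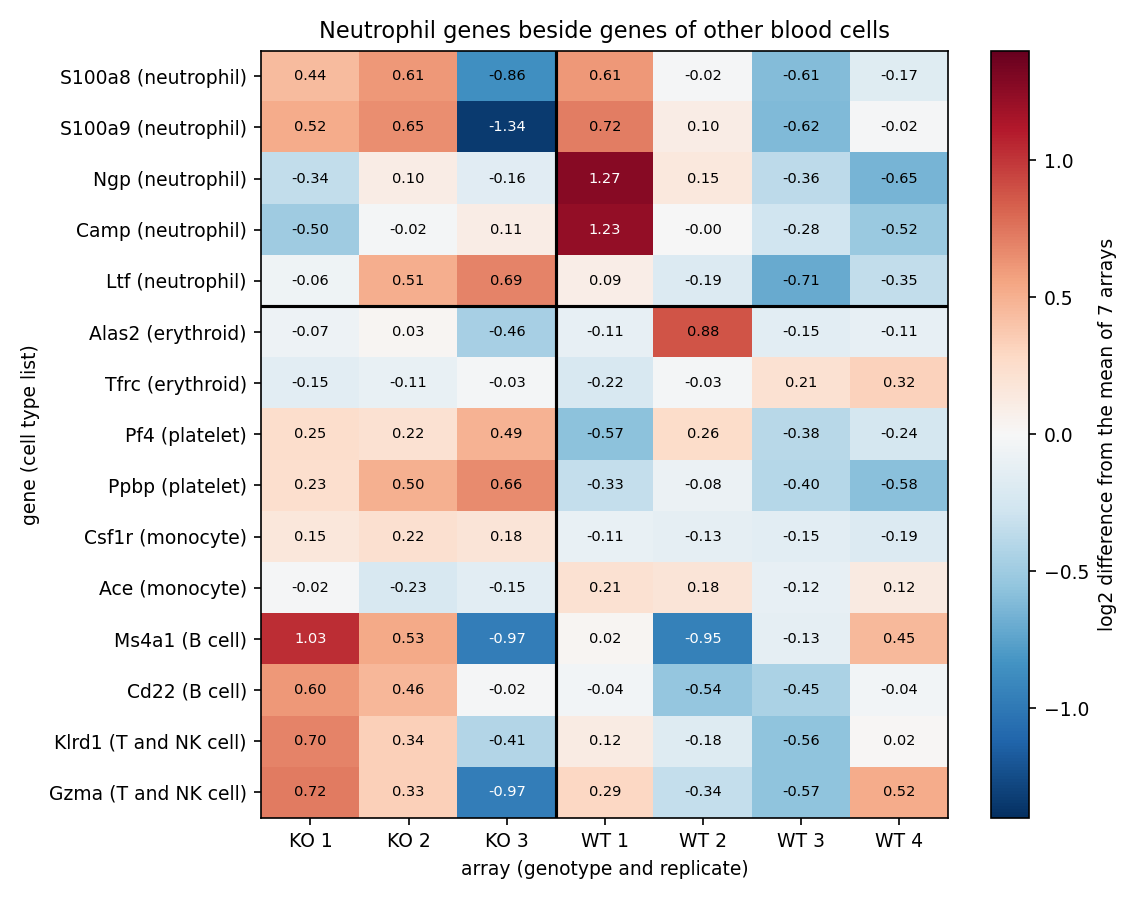
Difference from the mean of 7 arrays (log2 units) of 5 neutrophil genes, above the line, and of the 2 brightest tested genes of each list of other blood cells, below it, by array. KO replicate 3 is low for S100a8 (-0.86), S100a9 (-1.34), Ms4a1 (-0.97) and Gzma (-0.97), but not for Cd22 (-0.02). Cd22 is lowest in WT replicate 2 (-0.54), where Ms4a1 is also low (-0.95), and Klrd1 is lowest in WT replicate 3 (-0.56). WT replicate 2 is high for Alas2 (0.88), and Ppbp is higher on all 3 KO arrays than on the 4 WT arrays.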

How the data were processed

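Lung RNA was converted to biotinylated cRNA for Affymetrix arrays, 1 per mouse, per the labels. The authors deposited log2 levels for 45101 probe sets on 7 arrays. The submitters' processing notes name RMA, MAS5 and Affymetrix Expression Console with no roles, so which of them made the log2 values is unstated. The log base was taken from the range of the values. For each gene the brightest probe set naming it alone, by mean, was used, with names updated through a RefSeq table of GRCm38.p6 (34741 of 34945 matched). Genes at or above the 40th percentile of probe set means were tested, 13285 of 18193.

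The genotypes were compared in limma 3.58.1 under R 4.3.3 (lmFit, eBayes), with Benjamini-Hochberg adjusted p under 0.05. Correlations used all 5040 orders of 7 arrays, two-sided. The fit was tested on simulated data. The number of arrays limits the precision. The members and lists were chosen with earlier results of these data known. Named genes were the members, changed genes of each list up to 4 by smallest p, else its 2 brightest (in cell type lists both), and the 10 genes most like S100a8 and S100a9; others are marked. Alternatives covered normalization, level filter, probe sets, variance model, array weights, a control covariate, the replicate number and each array left out. Plots used Python 3.11.15 with matplotlib 3.10.9.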

Additional observations from a re-analysis of the deposited data

Results flagged for a closer look

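Csf3r was 7.64 in WT replicate 3, against 7.99 to 8.00 in the other 3 WT arrays, a gap of 0.972 of the group's range. The same array was the lowest WT array for S100a8, S100a9, Mmp8, Ltf and Csf3r. In WT replicate 4, Xist was 12.72, against 6.31 to 6.44 in the other WT arrays, and the Y-linked Eif2s3y was 3.71, against 9.30 to 9.38. Without that array the largest neutrophil gene change, that of Ltf, was 0.65 (limma adjusted p = 0.139). WT levels of 10 member probe sets and these 2 genes were examined for a lone array, 12 in all, and about 1 in 20 is flagged by chance. Groups of 3 were not examined.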

How the results depend on the processing

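Of 9 neutrophil genes, 0 passed in the 7-array fit (1 at unadjusted p under 0.05), 1 after a further quantile normalization and between 0 and 2 when each array was left out. The count over all tested genes was 2069, and 891 to 1951 with an array left out, and 0 with the 3′ and 5′ beta-actin difference in the fit, when 2204 were at unadjusted p under 0.05. With the replicate number as a block it was 371, and 0 of the 9 genes passed. Same-numbered KO and WT arrays had correlations of deviations of 0.003, -0.042 and 0.035, and KO replicate 1 correlated best with WT replicate 4 (0.229), so the numbers are taken as shared numbers only. The sign turned with median centring for Lcn2 (-0.0258), with array weights for Mmp8 (0.0057), and with the beta-actin term for S100a8 (-0.70), Csf3r (-0.0226) and Mmp9 (-0.12). That term also moved S100a9 to -1.05, Ngp to -1.11, Camp to -1.01, Mmp8 to -0.39 and Lcn2 to 0.32, none of them past the threshold (limma adjusted p from 0.485 to 0.789). The beta-actin difference was higher on every KO array than on every WT array, so it and genotype cannot be told apart in these values. With 1 array left out the log2 change ranged from -0.16 to 0.57 for S100a8, -0.46 to 0.54 for S100a9, -0.49 to 0.15 for Ngp, -0.45 to 0.13 for Camp, 0.52 to 0.89 for Ltf, -0.045 to 0.54 for Csf3r, -0.18 to 0.25 for Mmp8, 0.02 to 0.41 for Mmp9 and -0.19 to 0.22 for Lcn2. The cause was not tested. Under the 60th percentile level filter Mmp8 was not tested, and 8 genes remained. The number of genes above the 95th percentile of spread was 9, 8 with the mean of all probe sets, and 7 to 9 with an array left out. Pairs with r above 0.8 numbered 7 of 36, 5 without the 2 farthest arrays (3 of them among the 7, the others being S100a8 and S100a9 with Ltf) and 8 after centring on genotype means. With 3 and 4 arrays, only large changes of genes this variable can pass.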
